A study of Mus musculus with 4 samples.

Results

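The mitochondrial and glutathione antioxidant genes are 10 genes whose products make, use or regenerate reducing power against peroxides and superoxide: Nnt, Txnrd1, Txnrd2, Prdx3, Sod2, Gpx1, Gpx4, Gsr, Gclc and Gclm. Every probe set annotated to exactly 1 of them was taken, which gave 24 of the 45037 probe sets on the array. Adrenal glands came from male mice aged 2 months, with 2 arrays from V1a knockout (KO) mice, which lack the V1a vasopressin receptor, and 2 arrays from wild-type (WT) mice of the same sex and age. The labels give no strain, no form of the deleted allele and no other allele or treatment, and they do not say that the 2 arrays of a genotype came from separate animals. The glands were measured whole, so fewer cells of a type and less RNA per cell cannot be told apart. The p-values below therefore measure only the spread between these arrays, which may be technical. Values are log2 expression units as deposited, and differences are knockout minus wild type. Probe sets dimmer than 4 log2 units on 3 or 4 arrays were not tested. That left 20 of the 24, with all 10 genes represented.

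Mitochondria of the adrenal cortex pass electrons to the cytochrome P450 enzymes that make corticosteroids, and electrons that leak from this chain form superoxide. Superoxide dismutase turns superoxide into hydrogen peroxide, which peroxiredoxins and glutathione peroxidases reduce, drawing on thioredoxin and glutathione. Both carriers are recharged with NADPH, part of which the transhydrogenase Nnt makes inside mitochondria. Loss of Nnt or of Txnrd2 is a known cause of familial glucocorticoid deficiency in people, and the mouse substrain C57BL/6J is known to carry a disrupted Nnt gene.

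No antioxidant probe set passed an adjusted p of 0.05 in limma, 0 of 20, as was so for all 17228 probe sets tested (percent called 0%). The smallest adjusted p among the 20 was 0.763. At an unadjusted p under 0.05 limma gave 3 of the 20, against 5.14% of all probe sets, and a stricter unadjusted rule (p under 0.01, 2-fold or more) gave 1 of 20, against 0.836%. The 3 are single probe sets of Nnt, Txnrd1 and Gpx4. Of the 20 probe sets, 15 lay lower and 5 higher in the knockout, where 54.7% of all tested probe sets lay lower. The 2 genotypes did not overlap on 13 of the 20, against 37.4% of all probe sets. In 10 of these both knockout arrays lay below both wild-type arrays (20% of all probe sets) and in 3 above them (17.4%). Probe sets of 1 gene read the same RNA, so these counts are not of independent items. With the probe set of highest mean standing for its gene, 7 of the 10 genes lay lower, with a median difference of -0.27. Of the 10110 genes tested, 56.0% lay lower, with a median of -0.05. By that choice the genotypes did not overlap in 6 of the 10 genes, against 37.7% of all genes, of which 5 lay lower in the knockout (20.5% of all genes) and 1 higher (17.1%). At an unadjusted p under 0.05 limma gave 1 of the 10 genes, Txnrd1, against 5.06% of all genes, and at the stricter unadjusted rule 0 of the 10, against 0.692%.

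**Figure D1:**
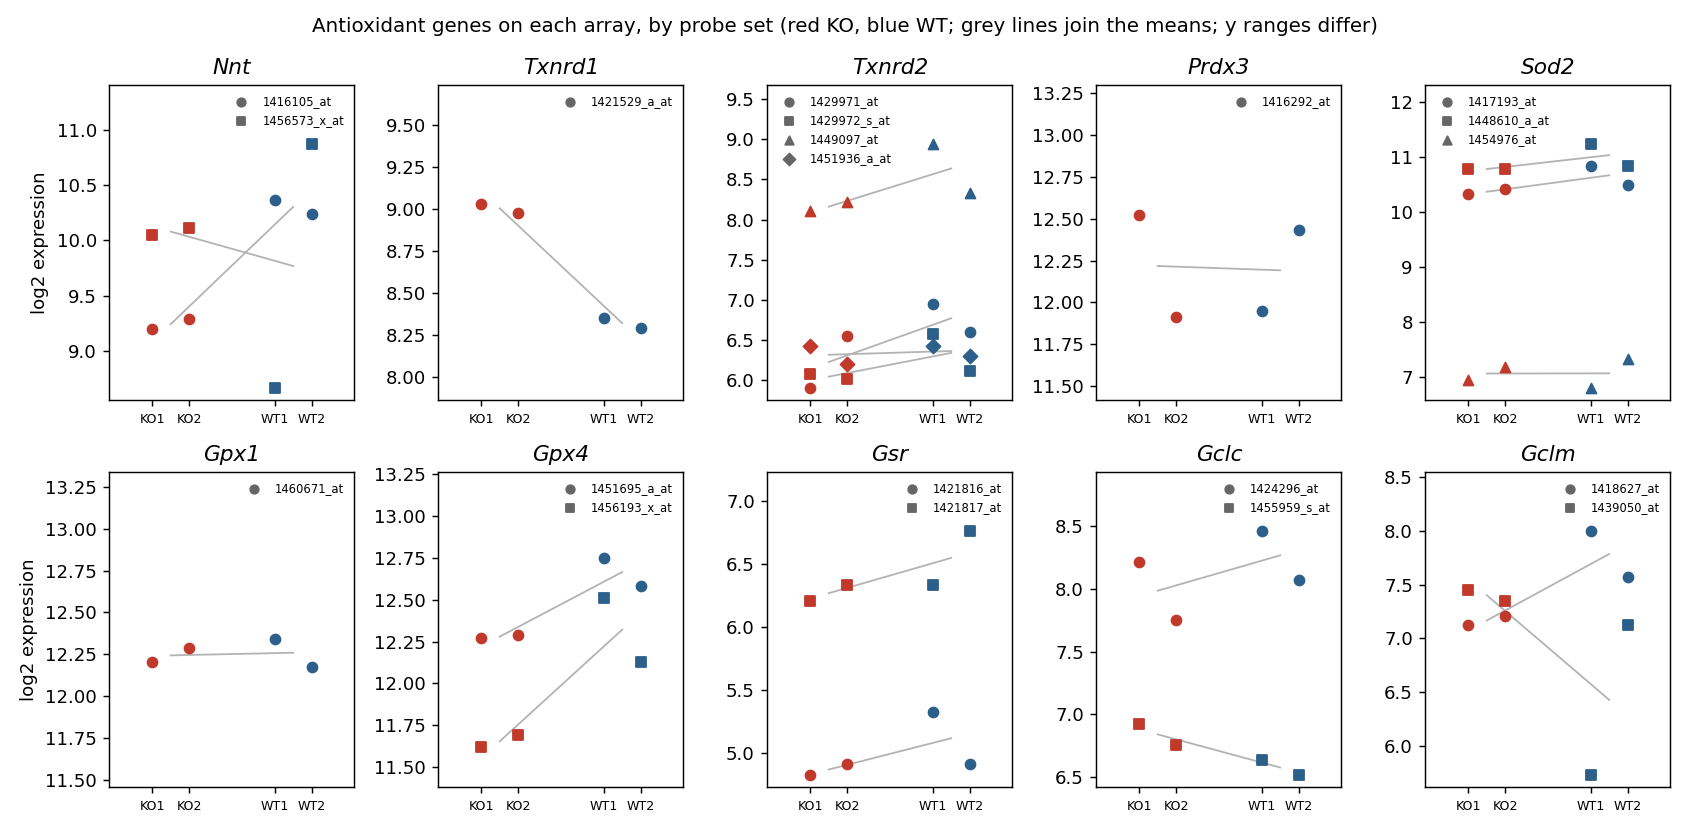
Log2 expression of the 20 tested probe sets of the 10 antioxidant genes on each array, knockout arrays (KO1 and KO2, red) left of wild-type arrays (WT1 and WT2, blue), with 1 marker shape per probe set and grey lines between genotype means. Both probe sets of Gpx4 and 3 of the 4 of Txnrd2 sat lower on both knockout arrays, the probe set of Txnrd1 sat higher, and the probe sets of Nnt and of Gclm slope in opposite directions.

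The arrays differed in ways that touch these genes. Across tested probe sets wild-type array 1 correlated with the other 3 arrays at 0.919 to 0.924, while the other 3 correlated with each other at 0.974 to 0.986. Probe sets are not independent replicates. The cortex was plainly present: the 8 fixed cortex markers averaged 12.99 and 12.98 on the knockout arrays and 13.08 and 13.09 on the wild-type arrays. Of the 8, 5 lay lower and 3 higher in the knockout. The genotypes did not overlap in 3 of the 8, against 37.7% of all genes. All 3 lay lower, where 20.5% of all genes lay lower with no overlap. They were Nr5a1, the steroidogenic transcription factor, at -0.37, the electron carrier Fdx1 at -0.27 and the steroid dehydrogenase Hsd3b1 at -0.12. The 5 medulla markers named on the array averaged 12.94 and 12.06 on the knockout arrays and 13.16 and 12.30 on the wild-type arrays, and none of the 5 was free of overlap, with Pnmt at -0.77, Dbh at -0.30 and Chga at -0.06. The 5 liver markers averaged 2.62 and 2.72 on the knockout arrays, 7.91 on wild-type array 1 and 3.54 on wild-type array 2, with albumin (Alb) at 8.86 on wild-type array 1 alone. Serpina1b, a liver protease inhibitor, was at 2.30 on both knockout arrays and at 7.97 and 7.20 on the wild-type arrays (limma adjusted p = 0.245). It so entered the test only through wild type. Among the 5 liver markers, Serpina1b alone read above 4 log2 units on wild-type array 2, where Alb read 2.42. The 6 adipocyte markers named on the array, of 8 fixed, averaged 5.50 and 7.52 on the knockout arrays and 8.41 and 7.47 on the wild-type arrays, with Lep at the floor of 2.30 throughout. Ucp1, the brown-fat uncoupling protein, read 2.80 and 5.91 on the knockout arrays and 10.05 and 7.24 on the wild-type arrays. Cidea, another brown-fat gene, lay at -3.57 with no overlap, and Pck1 at -0.44 with overlap. The adipocyte markers Adipoq and Fabp4 lay at -0.26 and -0.03 with overlap, and both were highest on knockout array 2. The 3 erythroid markers averaged 3.15 and 3.36 on the knockout arrays and 5.31 and 3.21 on the wild-type arrays, with Hba-a1 at 2.30 on all 4 arrays and Alas2 at 4.67 and 5.30 on the knockout arrays and 9.46 and 4.87 on the wild-type arrays. The 4 kidney markers were near the floor everywhere. The 5 macrophage markers averaged 7.16 and 7.68 on the knockout arrays and 7.25 and 7.22 on the wild-type arrays, but they did not move as one. Cd68 read 6.10 and 7.14 on the knockout arrays and 5.17 and 5.84 on the wild-type arrays, a difference of 1.11 with no overlap, while Csf1r lay at -0.22 with no overlap and Adgre1 at -0.17 with overlap. The part of these other tissues in the values below was not tested. The signal of the 3' over the 5' probe set of beta-actin, a measure of RNA integrity and labelling, was 2.19 and 2.63 log2 units on the knockout arrays and 2.12 and 2.46 on the wild-type arrays. The same measure for Gapdh was 0.39 and 0.63 on the knockout arrays and 0.80 and 0.60 on the wild-type arrays, so wild-type array 1 was the lowest by actin and the highest by Gapdh. Avpr1a, the targeted gene, read 2.31 to 2.60 on both of its probe sets on all arrays, so it does not check the genotype labels.

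Nnt, the inner-membrane transhydrogenase that uses the proton gradient to make NADPH, gave the largest and the least settled reading. Probe set 1416105_at read 9.20 and 9.29 on the knockout arrays and 10.37 and 10.24 on the wild-type arrays. The genotypes were well apart and the arrays of each were close, at 9.24 ± 0.07 in the knockout and 10.30 ± 0.09 in wild type (SD, n = 2 each). The difference was -1.06 (SE 0.16, 95% interval -1.53 to -0.59), or 2.09-fold lower in the knockout, with a limma adjusted p of 0.763. Leaving out each array in turn kept it between -1.13 and -0.996, though of these 4 fits only the one without wild-type array 2 met the stricter unadjusted rule. The second probe set, 1456573_x_at, read 10.05 and 10.12 on the knockout arrays and 8.67 and 10.87 on the wild-type arrays. The knockout arrays thus lay between the 2 wild-type arrays, and the difference was 0.31 with an SE of 0.82. Set against wild-type array 2 alone, both probe sets lay lower in the knockout, by -0.996 for 1416105_at and by -0.79 for 1456573_x_at. Set against wild-type array 1 alone they lay on opposite sides, at -1.13 and 1.41. The suffix _x_at marks a probe set with probes shared with other sequences. The second probe set has the higher mean, so it stood for Nnt in the counts per gene. The remaining probe set of Nnt, 1432608_at, read 2.30 on all 4 arrays and was not tested.

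Thioredoxin reductases recharge thioredoxin with electrons from NADPH, and both of those among the member genes are selenoproteins. Another one, Txnrd3, was tested outside the member genes and lay at -0.15 (SE 0.42) with overlap. Txnrd2, the mitochondrial form, lay lower in the knockout on all 4 of its probe sets, at -0.54, -0.48, -0.30 and -0.05, each with a limma adjusted p of 0.794 or above. The brightest, 1449097_at, read 8.11 and 8.21 on the knockout arrays and 8.94 and 8.33 on the wild-type arrays. Both knockout arrays were lower there, but the gap to wild-type array 2 was small: the difference of -0.48 (SE 0.27) became -0.17 without wild-type array 1 and -0.78 without wild-type array 2. Probe set 1429971_at read 5.90 and 6.55 on the knockout arrays and 6.95 and 6.59 on the wild-type arrays. On 1429972_s_at the knockout arrays read 6.08 and 6.01 and the wild-type arrays 6.57 and 6.11. On 1451936_a_at the genotypes overlapped, with 6.43 and 6.20 in the knockout and 6.43 and 6.30 in wild type. Both knockout arrays were thus the lowest on 3 of the 4 probe sets, on each of which knockout array 2 or wild-type array 2 lay close to the other genotype.

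Txnrd1, the cytosolic and nuclear form, was the one gene of the 10 that lay higher in the knockout with no overlap on the probe set standing for it. Probe set 1421529_a_at read 9.03 and 8.98 on the knockout arrays and 8.35 and 8.29 on the wild-type arrays. The arrays of a genotype were close to each other, and the genotypes did not overlap. The difference was 0.69 (SE 0.16, 95% interval 0.24 to 1.13), or 1.61-fold higher in the knockout, with a limma adjusted p of 0.794, and it stayed between 0.65 and 0.72 whichever array was left out. Its other probe sets, 1424486_a_at and 1424487_x_at, read 2.30 on every array, so no second reading of Txnrd1 bears on this difference. The 3 genes most like Txnrd1 over the 4 arrays, by the root mean square distance of mean-centred values among 10109 other genes, were Sox18 (0.02 log2 units), Ctu1 (0.02) and Lars2 (0.04). A search of so many genes over 4 arrays finds close matches readily, so shared control cannot be read from these distances. Txnrd1 and Gpx4 lie on chromosome 10, as does Avpr1a, at 39.6 and 42.4 Mb from it in the mouse assembly GRCm38.p6. The part of sequence linked to Avpr1a in their differences was not tested.

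Prdx3, the mitochondrial peroxiredoxin that reduces hydrogen peroxide at the expense of thioredoxin, showed no separation of genotypes. Its 1 probe set read 12.52 and 11.91 on the knockout arrays and 11.95 and 12.43 on the wild-type arrays, a difference of 0.03 (SE 0.32, 95% interval -0.90 to 0.95). Each genotype had 1 high and 1 low array.

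Sod2, the manganese superoxide dismutase of the mitochondrial matrix, had 3 tested probe sets. Probe set 1448610_a_at read 10.77 and 10.78 on the knockout arrays and 11.23 and 10.83 on the wild-type arrays, and 1417193_at read 10.32 and 10.41 on the knockout arrays and 10.84 and 10.48 on the wild-type arrays. On both, wild-type array 1 was the highest and wild-type array 2 lay just above the knockout arrays, so the differences of -0.25 and -0.30 were -0.05 and -0.12 without wild-type array 1. The third, 1454976_at, read 6.94 and 7.17 on the knockout arrays and 6.79 and 7.32 on the wild-type arrays, where the knockout arrays lay between the wild-type ones. The remaining probe set, 1417194_at, read 2.81 on all 4 arrays and was not tested.

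**Figure D2:**
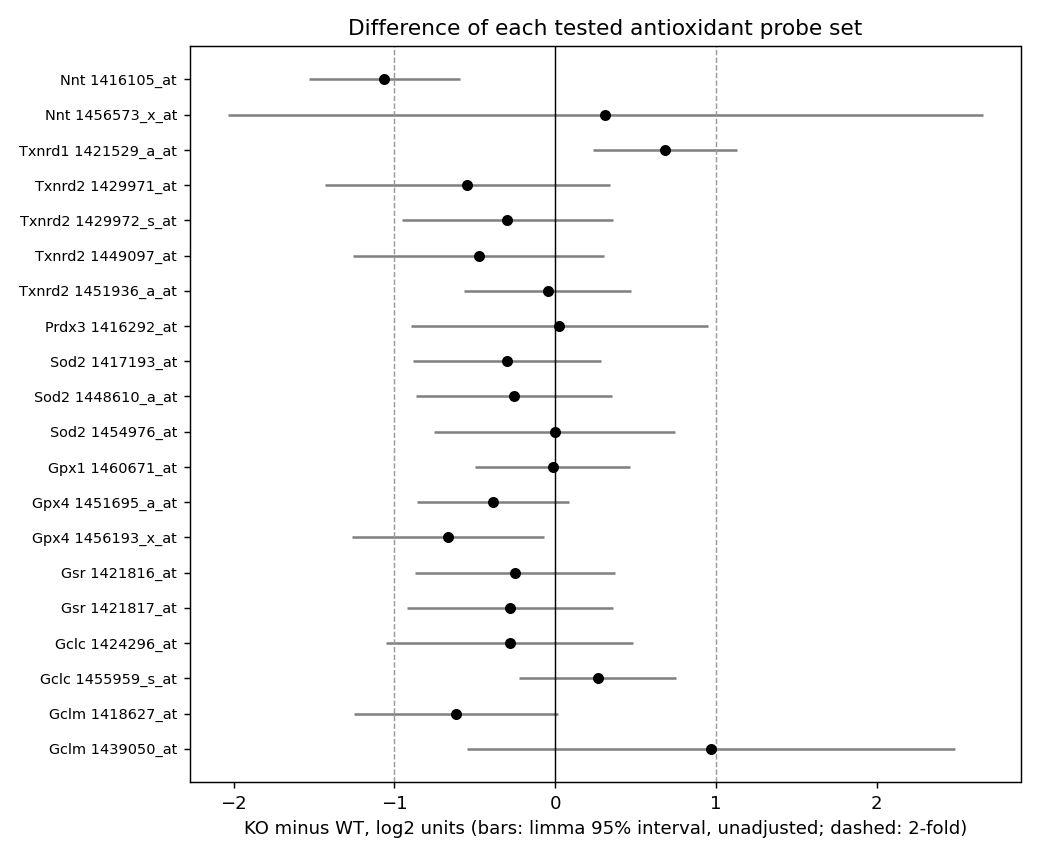
Knockout minus wild-type difference in log2 units for each tested probe set (points) with limma's 95% interval, unadjusted (bars), and dashed lines at a 2-fold difference. The intervals of Nnt 1416105_at, Txnrd1 1421529_a_at and Gpx4 1456193_x_at do not reach 0, and the widest ones are those of Nnt 1456573_x_at and Gclm 1439050_at.

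Glutathione peroxidases use glutathione to reduce peroxides. Gpx4, the selenoprotein that reduces lipid hydroperoxides in membranes, lay lower in the knockout on both of its probe sets. Probe set 1451695_a_at read 12.27 and 12.29 on the knockout arrays and 12.75 and 12.58 on the wild-type arrays, a difference of -0.39 (SE 0.17). Probe set 1456193_x_at read 11.62 and 11.69 on the knockout arrays and 12.51 and 12.13 on the wild-type arrays, a difference of -0.67 (SE 0.21, limma adjusted p = 0.794). The suffix _x_at of the latter marks probes shared with other sequences. The genotypes did not overlap on either probe set, and leaving out each array in turn left the 2 differences at -0.47 to -0.30 and -0.86 to -0.47. Gpx1, the peroxidase of the cytosol and mitochondria, read 12.20 and 12.29 on the knockout arrays and 12.34 and 12.18 on the wild-type arrays. These overlapped, with a difference of -0.02 (SE 0.17, 95% interval -0.50 to 0.46).

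Gsr, which returns oxidised glutathione to its reduced form with NADPH, lay lower on both of its probe sets by similar amounts, -0.28 and -0.25 (SE 0.22 each). Probe set 1421817_at read 6.21 and 6.33 on the knockout arrays and 6.33 and 6.76 on the wild-type arrays, where knockout array 2 and wild-type array 1 were almost level. Probe set 1421816_at read 4.83 and 4.91 on the knockout arrays and 5.32 and 4.91 on the wild-type arrays, where knockout array 2 and wild-type array 2 were level. The higher wild-type array was array 2 on the first probe set and array 1 on the second.

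Gclc and Gclm are the catalytic and modifier subunits of glutamate-cysteine ligase, which catalyses the rate-limiting step of glutathione synthesis. Both gave readings of opposite sign from their 2 probe sets. For Gclm, probe set 1418627_at read 7.12 and 7.21 on the knockout arrays and 8.00 and 7.57 on the wild-type arrays, a difference of -0.62 (SE 0.22, limma adjusted p = 0.794). Probe set 1439050_at read 7.45 and 7.35 on the knockout arrays and 5.74 and 7.12 on the wild-type arrays, a difference of 0.97 (SE 0.53). The genotypes did not overlap on either, and the knockout was lower on the first and higher on the second. Wild-type array 1 was the far array on both, and without it the 2 differences were -0.40 and 0.28, still of opposite sign. For Gclc, probe set 1424296_at read 8.22 and 7.76 on the knockout arrays and 8.46 and 8.07 on the wild-type arrays, which overlapped, with a difference of -0.28 (SE 0.27). Probe set 1455959_s_at read 6.92 and 6.75 on the knockout arrays and 6.63 and 6.52 on the wild-type arrays, a difference of 0.27 (SE 0.17) with no overlap. The 3 genes most like Gclm 1418627_at by the same distance, with the same limit, were Ndufaf5 (0.01), Tomm40l (0.01) and Map2 (0.03).

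By the probe sets standing for their genes, Txnrd1 at 0.69 and Gclm at -0.62 were furthest from 0 and on opposite sides. The other probe set of Gclm lay at 0.97, on the same side as Txnrd1. Txnrd1 and Gclm are known targets of NRF2, a transcription factor that binds antioxidant response elements, and their promoters are shown for that reason. The core letters searched were TGACNNNGC, on both strands, in windows from 250 bases before to 50 after each RefSeq start. Of the 12 windows of the 7 member genes in the RefSeq table, 2 held a match, 1 of the 3 of Txnrd1 and the 1 of Gclm, while 12.4% of all 32851 windows held one. Both matches are on the minus strand relative to the gene, so the capitals below show the motif's reverse complement. The Txnrd1 window is chr10:82858956-82859255 and the Gclm window chr3:122245307-122245606, both plus strand, GRCm38.p6, and a match is a description of the letters only.
Txnrd1: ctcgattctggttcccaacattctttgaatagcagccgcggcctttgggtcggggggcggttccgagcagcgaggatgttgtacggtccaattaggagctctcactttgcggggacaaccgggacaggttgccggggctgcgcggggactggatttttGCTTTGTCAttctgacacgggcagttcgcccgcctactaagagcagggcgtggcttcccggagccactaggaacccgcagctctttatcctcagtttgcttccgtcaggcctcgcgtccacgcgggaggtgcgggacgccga
Gclm: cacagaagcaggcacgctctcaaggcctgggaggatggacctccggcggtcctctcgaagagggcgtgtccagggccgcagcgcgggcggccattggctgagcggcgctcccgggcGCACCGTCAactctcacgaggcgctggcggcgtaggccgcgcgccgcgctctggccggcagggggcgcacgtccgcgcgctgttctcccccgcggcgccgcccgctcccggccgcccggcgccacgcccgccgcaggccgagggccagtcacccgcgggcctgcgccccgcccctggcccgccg

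**Figure D3:**
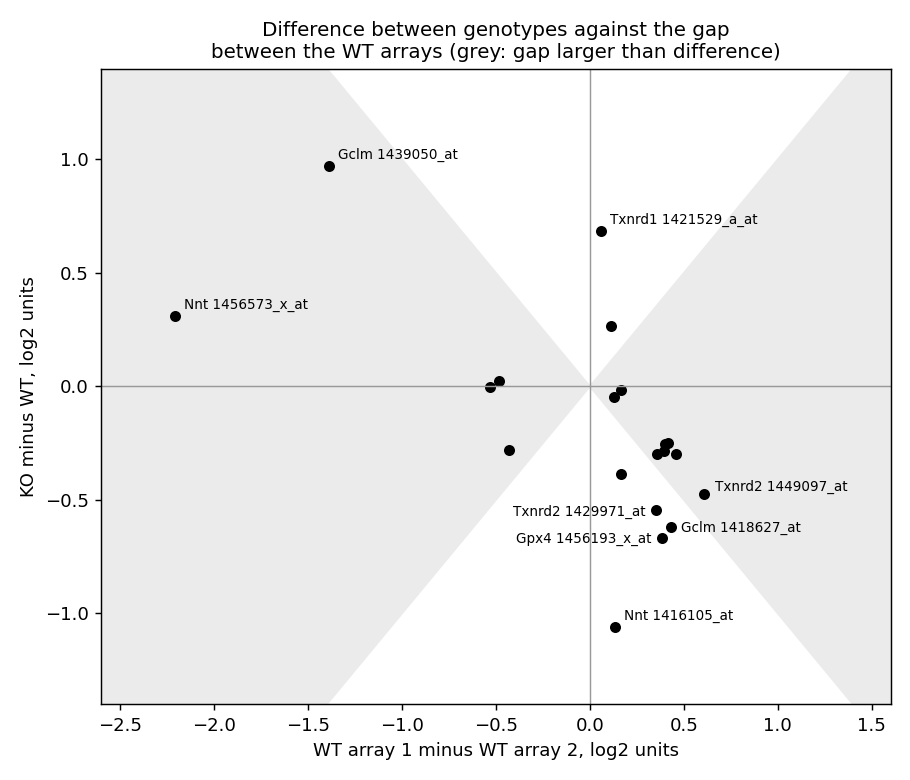
Knockout minus wild-type difference (vertical, log2 units) against wild-type array 1 minus wild-type array 2 (horizontal, log2 units) for the 20 tested probe sets. In the grey area, which holds 13 of the 20, the gap between the wild-type arrays is larger than the difference between genotypes, while Nnt 1416105_at and Txnrd1 1421529_a_at lie near the vertical axis, far from 0.

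Probe sets of 1 gene often disagreed in direction. Of the 7 genes with at least 2 tested probe sets, Txnrd2, Sod2, Gpx4 and Gsr had all differences on 1 side of 0 and Nnt, Gclc and Gclm did not. Sod2 1454976_at was so near 0 that it changed side with quantile normalization or centred arrays, which left 3 such genes. Over all 3861 genes with at least 2 tested probe sets, 51.3% had 1 sign. The differences of 1 gene spanned 1.59 log2 units in Gclm, 1.37 in Nnt, 0.55 in Gclc, 0.50 in Txnrd2, 0.30 in Sod2, 0.28 in Gpx4 and 0.03 in Gsr, against a median of 0.40 over all such genes. Wild-type array 1 was the highest of the 4 arrays on 12 of the 20 probe sets and the lowest on 3, namely Nnt 1456573_x_at, Sod2 1454976_at and Gclm 1439050_at. It was an extreme on 75.0% of these probe sets and on 73.9% of all tested ones. The knockout arrays were closer to each other, with a median gap of 0.09, than the wild-type arrays, with a median gap of 0.40. Set against wild-type array 2 alone, both knockout arrays lay lower on 12 of the 20 probe sets and higher on 4. Of all 17228 tested probe sets, 5503 lay lower (31.9%) and 7279 higher. Set against wild-type array 1 alone, both knockout arrays lay lower on 13 of the 20 and higher on 5. Of all 17228, 8933 lay lower (51.9%) and 5595 higher.

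**Figure D4:**
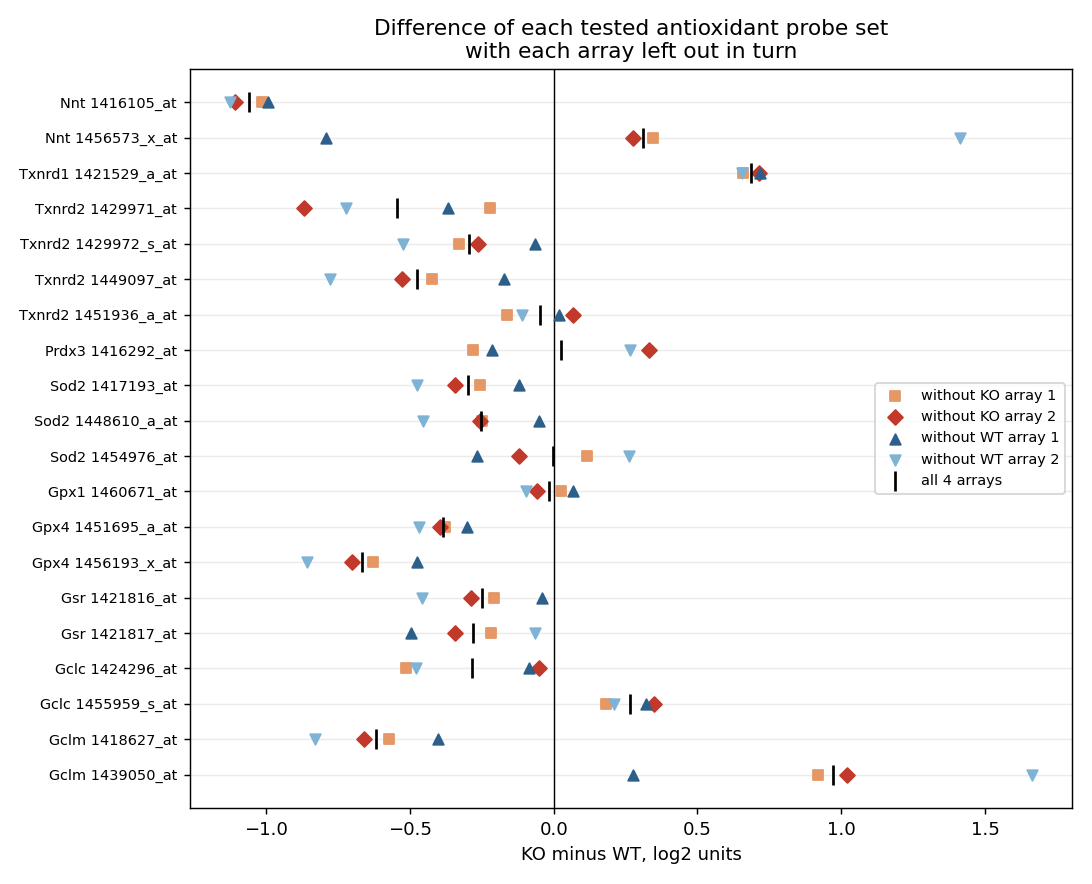
Knockout minus wild-type difference in log2 units for each tested probe set on all 4 arrays (black bars) and with each array left out in turn (coloured markers). Nnt 1416105_at and Txnrd1 1421529_a_at hardly move, and Nnt 1456573_x_at goes between -0.79 without wild-type array 1 and 1.41 without wild-type array 2.

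Other genes of the same systems were read from fixed lists, with the probe set of highest mean for each gene. Of 81 tested genes on 7 lists, 0 passed the adjusted threshold in limma and 1 had an unadjusted p under 0.05, against 5.06% of all genes. Of the 81, 55 lay lower in the knockout (56.0% of all genes did), and the genotypes did not overlap in 20 lower and 10 higher genes, where 37.7% of all genes did not overlap. The gene with an unadjusted p under 0.05 was Ggct, which breaks down gamma-glutamyl dipeptides on the way from glutathione, at 5.12 and 4.39 on the knockout arrays and 3.20 and 3.81 on the wild-type arrays, a difference of 1.25 (SE 0.38). Both wild-type values lay below 4 log2 units, so Ggct entered the test only through the knockout arrays, where it is high, and its p and lack of overlap are conditional on that.

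Among thioredoxins and glutaredoxins, 8 of 9 tested genes lay lower, with a median of -0.15. Txn2, the mitochondrial thioredoxin that Txnrd2 recharges and Prdx3 uses, read 11.24 and 11.21 on the knockout arrays and 11.84 and 11.39 on the wild-type arrays. Its difference was -0.39 (SE 0.22), and its other probe sets gave -0.40 and -0.36, so all of them lay lower in the knockout. Txn1, the cytosolic thioredoxin, read 12.44 on both knockout arrays and 12.48 and 12.44 on the wild-type arrays, a difference of -0.02 (SE 0.15). Glrx, a cytosolic glutaredoxin, lay at -0.72 (SE 0.28) and Glrx5, a mitochondrial one that serves iron-sulfur cluster assembly, at -0.26 (SE 0.16). The genotypes did not overlap in these 2 and in Txn2, which are 3 of the 9, against 37.7% of all genes. All 3 lay lower, where 20.5% of all genes lay lower with no overlap.

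Among the other peroxiredoxins, dismutases and catalase, 3 of 5 tested genes lay lower, with a median of -0.13. Prdx4, the peroxiredoxin of the endoplasmic reticulum, lay at -0.49 (SE 0.18) and Sod3, the extracellular dismutase, at -0.60 (SE 0.22). These are 2 of the 3 genes of the 5 with no overlap, against 37.7% of all genes. All 3 lay lower, where 20.5% of all genes lay lower with no overlap. Catalase (Cat), which splits hydrogen peroxide in peroxisomes, read 10.42 and 10.80 on the knockout arrays and 6.86 and 10.72 on the wild-type arrays. Wild-type array 1 alone was low, as it was on the other probe set of Cat, which read 10.17 and 10.22 on the knockout arrays and 7.43 and 9.98 on the wild-type arrays. Sod1, the cytosolic dismutase, differed by 0.48 (SE 0.37), with wild-type array 1 again the lowest, while its next brightest probe set gave -0.21.

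For glutathione synthesis and use beyond the 10 genes, 15 of 21 tested genes lay lower and 6 higher, with a median of -0.21. Gss, which adds glycine in the last step of glutathione synthesis, differed by 0.00 (SE 0.23). Hagh, a glyoxalase that releases glutathione, lay at -0.80 (SE 0.44) and Mgst2, a microsomal glutathione transferase, at -0.48 (SE 0.28). Among NADPH sources, 9 of 11 lay lower, with a median of -0.06, and Idh2, the mitochondrial NADPH-making isocitrate dehydrogenase, differed by -0.07 (SE 0.33). Mthfd1l and Mthfd2, enzymes of mitochondrial folate metabolism, lay at 0.80 (SE 0.42) and -0.80 (SE 0.58). Nadk, which makes NADP from NAD, lay at -0.19 (SE 0.22).

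Among NRF2 regulators and targets, 6 of 14 lay lower and 8 higher, with a median of 0.01. Nfe2l2, which encodes NRF2, differed by 0.13 (SE 0.18) and Keap1, which marks NRF2 for degradation, by -0.10 (SE 0.20). The small MAF partners Maff and Mafk lay at -0.73 (SE 0.26) and -0.48 (SE 0.24), and the aldehyde oxidase Aox1 at 0.37 (SE 0.17). Genotypes did not overlap in 6 of the 14, these 3 included, against 37.7% of all genes. Maff read under 4 log2 units on both knockout arrays and entered the test only through wild type. For mitochondrial content, the 6 fixed genes had a median of 0.00, with 3 lower and 3 higher. Tfam lay at 0.28 (SE 0.17) and Cox4i1 at -0.29 (SE 0.23), both without overlap, and Tomm20 at 0.51 (SE 0.42) with overlap. Wild-type array 1 alone was low on that probe set of Tomm20, at 11.67. The other probe sets of Tomm20 did not share 1 direction.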

How the data were processed

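Per the labels' protocols, mRNA purified from adrenal TRIzol extracts was labelled and hybridised to Affymetrix Mouse Genome 430 2.0 arrays. The authors summarised each probe set with GCRMA, per the labels' protocols, and deposited the result on a log2 scale. The submitters' processing notes name Bioconductor 3.14. The log2 scale was read from the values (2.30 to 14.92), and the GCRMA version is not given in the sources used here. GCRMA draws dim probe sets towards a shared floor, which compresses their differences.

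No further normalization was applied. The 64 control probe sets were left out. The annotation paired 34945 probe sets with a single gene, 932 with several and 9160 with none. Of the first kind, 34741 matched the GRCm38.p6 gene table by gene ID. Genotypes were taken from the labels. The comparison, knockout minus wild type, used limma 3.58.1 in R 4.3.3 (lmFit, eBayes without trend, genotype only) over all 17228 tested probe sets, with Benjamini-Hochberg adjustment, and checked on simulated data. Degrees of freedom were 2 residual and 1.73 prior, and SEs are those moderated by limma. An exact permutation test of 2 arrays against 2 cannot go below a two-sided p of 0.333 and was not used. The number of arrays limits the precision.

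Named were all members with every probe set and, of each list, the 3 genes with the smallest p where none passed, plus Txn1, Txn2, Gss, Cat, Sod1, Nfe2l2, Keap1, Idh2 and Prdx5, which had no probe set of its own among those used. Txnrd3, Adipoq, Fabp4, Alb, Lep and Hba-a1 were named outside this rule after their values were seen. The members, lists, tests and alternatives were chosen with earlier results of these data known.

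Results were recomputed with the filter dropped or set at 6, after quantile normalization or median centring, with a robust trended eBayes, on plain probe sets alone, with a replicate block, without each array, with gene means over probe sets and against a 2-fold difference (treat).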

Additional observations from a re-analysis of the deposited data

How the results depend on the processing

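The count of antioxidant probe sets past the adjusted threshold in limma was 0 under every alternative run, as was the count of antioxidant genes. At an unadjusted p under 0.01 with a 2-fold difference the 1 probe set, Nnt 1416105_at, was no longer counted with the replicate block (0 probe sets, unadjusted p = 0.0143 in limma), nor without knockout array 1, knockout array 2 or wild-type array 1 (0 each). Of the antioxidant genes, 0 of 10 passed that rule in limma, but 1 of 8 did with plain probe sets only, where 1416105_at stood for Nnt. Over all genes, 75 of 8421 passed it there. The replicate numbers did not pair the arrays by the labels. Deviations of same-numbered arrays correlated at 0.154 over probe sets, with 2 pairs, and the block moved the count over all probe sets at that threshold to 126, against 144 without it. Leaving out each array in turn moved that count between 25 (without knockout array 1) and 1497 (without wild-type array 2), where 3 antioxidant probe sets were counted. It was 30 without knockout array 2, and 78 with no filter. Over all probe sets, 2 passed the adjusted threshold with a filter at 6 log2 units, with quantile normalization, with centred arrays and with plain probe sets only, where 1 gene passed, and none was an antioxidant probe set. The median over the antioxidant genes was -0.27, and -0.10 with the mean of each gene's probe sets. Leaving out each array gave -0.28 to -0.16, with -0.19 without wild-type array 1 and -0.16 without knockout array 2. The median of all genes was 0.04 without wild-type array 1 and -0.15 without wild-type array 2. Of 211 recomputed differences of antioxidant probe sets, 198 kept their direction and 13 turned sign. Many of the 198 could not turn. A changed filter, the robust trended eBayes, plain probe sets alone and the replicate block leave each difference as it was. All 13 came from quantile normalization, centred arrays or a left-out array. As 0 passed the threshold on all 4 arrays, no call could be lost. Sod2 1454976_at turned to 0.0176 with quantile normalization and 0.0209 with centred arrays, and Gpx1 to 0.0270 and 0.00799. With each array left out, Sod2 1454976_at ran over -0.27 to 0.26, Gpx1 over -0.0977 to 0.0666, Txnrd2 1451936_a_at over -0.16 to 0.0675, Prdx3 over -0.28 to 0.332 and Nnt 1456573_x_at over -0.79 to 1.41. The causes were not tested. A genotype reduced to a single array has no spread of its own, so the other genotype's spread was used for both.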

Other observations

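Of the 10 genes, Txnrd1, Txnrd2, Gpx1 and Gpx4, encode selenoproteins, whose selenocysteine is inserted at a recoded stop codon. Of 11 other selenoprotein genes tested, 7 lay lower and 4 higher in the knockout, with a median of -0.23, and 0 passed the adjusted threshold in limma or an unadjusted p under 0.05. Selenom, a selenoprotein of the endoplasmic reticulum, read 8.27 and 8.32 on the knockout arrays and 9.29 and 8.53 on the wild-type arrays, a difference of -0.61 (SE 0.32). Selenot lay at -0.29 (SE 0.16) and Msrb1, a methionine sulfoxide reductase, at -0.36 (SE 0.22). Genotypes did not overlap in 6 of the 11, 4 lower and 2 higher, where 37.7% of all genes did not overlap. These 3 genes, named for the smallest p of the list, are among the 6.

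Selenoprotein synthesis and selenium supply were read through 10 tested genes, 7 lower and 3 higher, with a median of -0.13. The list holds genes outside the synthesis machinery, such as Selenop. Secisbp2, which binds the element that directs selenocysteine insertion, read 6.47 and 6.55 on the knockout arrays and 6.07 and 6.20 on the wild-type arrays, a difference of 0.37 (SE 0.16, limma adjusted p = 0.794). Sepsecs, which completes the selenocysteine on its transfer RNA, lay at -0.18 (SE 0.16), and Selenop, the plasma carrier of selenium, at 0.15 (SE 0.16). These 3, named for the smallest p of the list, are the 3 of the 10 genes whose genotypes did not overlap, against 37.7% of all genes.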
